A study of Mus musculus with 2 samples.

Results

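The genes described here are 9 members of the Notch pathway: the receptors Notch1, Notch2 and Notch3, the ligands Jag1 and Jag2, the target genes Hes1, Hey1 and Nrarp, and Lfng, which encodes a sugar transferase acting on the receptors. The rule picks them by gene symbol and uses no measured value, though the list was drawn up with earlier results of these data known. They make up 9 of the 33696 features measured. All 9 were read in the summed counts of 1 pooled single-cell library.

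The cells came from KPCY 6419c5, a line grown from a mouse pancreatic ductal adenocarcinoma. Clones 76 and 84 carried the BASELINE lineage recorder and received Cas12a-ABE, a base editor that writes A-to-G changes into DNA. Each was expanded from a single sorted cell, and the pair was mixed in equal parts after 19 days of editing and profiled with droplet 3′ RNA sequencing. No unedited or untreated cells were among the data used, every cell shared the line, the recorder and the editor, and the other sample of the series, a mix of 5 clones, was not analysed here.

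Notch receptors are cut in steps after they bind a ligand on a neighbouring cell. The freed intracellular part enters the nucleus and, with the DNA-binding protein RBPJ and a Mastermind coactivator, switches on genes of the Hes and Hey families and Nrarp. In the pancreas the pathway is known for holding progenitors undifferentiated and for its activity in duct-like and tumour cells.

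The library held 22178 barcodes with 116505698 unique molecular identifiers (UMIs, each standing for 1 captured RNA molecule), from 500 to 23576 per barcode. A filter on depth, genes and mitochondrial share kept 21361 cells. A cells were those with UMIs of Pde10a, Plcb1, Galnt18, Arhgap15 and Ceacam1, and B cells those with UMIs of S100a7a, Rgs20, Hs6st2, Ccbe1, Ctse and Mal. The 7816 A cells had a median of 4699.5 UMIs and a median mitochondrial share of 3.19%. The 8936 B cells had a median of 5440.5 UMIs and a mitochondrial share of 1.89%. A further 4609 cells were neither. A and B are named by these genes only, since no cell was tied to clone 76 or 84. Each is part of 1 library, so differences between them have no replicate check and no p-value. The 95% intervals below cover counting error only.

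The label of a ductal carcinoma line was compared with marker genes. The 8 duct or epithelial markers summed to 2740 CPM (a gene's UMIs scaled to one common total of UMIs in each set of cells) in A cells and 7628 in B cells, a gap carried by the keratins Krt7, Krt8, Krt18 and Krt19. Epcam went the other way, at 31.8 and 3.16 CPM. The 6 mesenchymal markers summed to 1604 and 2265 CPM, most of it Vim at 1375 and 1972. Vim and Cdh2 were higher in B cells, while Zeb1 (125 and 76.9 CPM), Zeb2 (27.5 and 8.66), Twist1 (26.8 and 0.853) and Snai2 (23.3 and 8.07) were higher in A cells. The fibroblast list stood at 2.11 and 0.853 CPM, with Col1a2, Dcn and Lum at 0. The pericyte or smooth muscle list stood at 144 and 6.44 CPM, nearly all of it Acta2, with Rgs5 and Kcnj8 at 0. The endothelial list stood at 36.9 and 8.70 CPM, mostly Egfl7, with Kdr and Emcn at 0. The immune list stood at 3.45 and 0.947 CPM. The acinar list stood at 10.01 and 4.23 CPM, nearly all of it Prss2, with Cpa1, Ctrb1 and Amy2a2 at 0. The endocrine list had 2 and 4 UMIs. What part these markers have in the members' levels was not tested.

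Among the receptors, Notch1 and Notch2 were both read at higher levels in A cells than in B cells, and Notch3 was nearly absent. Notch1 (ENSMUSG00000026923), the receptor with a classic role in cell fate choice, had 425 UMIs in A cells, a level of 10.6 CPM (95% interval 9.57 to 11.6). In B cells it had 165 UMIs, a level of 3.13 CPM (2.67 to 3.64). The A level was 3.38-fold the B level (2.81 to 4.06), a log2 difference of 1.75, and the intervals of the levels did not overlap. Notch2 (ENSMUSG00000027878), a related receptor, had 1393 UMIs in A cells and 1183 in B cells, or 34.6 CPM (32.8 to 36.5) against 22.4 CPM (21.2 to 23.7). Its A level was 1.54-fold the B level (1.43 to 1.67). Notch3 (ENSMUSG00000038146), known mainly from vascular smooth muscle, had 0 UMIs in A cells and 1 UMI in B cells. For a count of 0 in 7406 A cells read at equal depth, the 95% upper limit was 0.0498% of cells with a UMI.

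The 2 Jagged ligands, membrane proteins that engage Notch receptors on the next cell, leaned the other way by smaller factors. Jag1 (ENSMUSG00000027276) had 610 UMIs in A cells, 15.1 CPM (14.0 to 16.4), and 989 in B cells, 18.7 CPM (17.6 to 19.9). The B level was 1.24-fold the A level (1.12 to 1.37). Jag2 (ENSMUSG00000002799) had 442 and 792 UMIs, or 11.0 CPM (9.98 to 12.0) in A cells and 15.01 CPM (14.0 to 16.1) in B cells. Its B level was 1.37-fold the A level (1.22 to 1.54).

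All 3 target genes, too, had their higher level in B cells. Hes1 (ENSMUSG00000022528), a transcriptional repressor and the usual readout of Notch signalling, had 2410 UMIs in A cells and 3554 in B cells. These were 59.8 CPM (57.5 to 62.3) and 67.3 CPM (65.2 to 69.6), a B level 1.13-fold the A level (1.07 to 1.19). Nrarp (ENSMUSG00000078202), an ankyrin-repeat protein that feeds back on the Notch complex, had 79 and 399 UMIs, or 1.96 CPM (1.55 to 2.44) and 7.56 CPM (6.84 to 8.34). Its B level was 3.85-fold the A level (3.02 to 4.97), a ratio whose interval overlaps that of Notch1 in the other direction. Hey1 (ENSMUSG00000040289), a repressor related to Hes1, had only 4 UMIs in A cells and 17 in B cells, and its B level was 3.24-fold (1.06 to 13.2) the A level.

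Lfng (ENSMUSG00000029570), the Lunatic fringe enzyme that adds a sugar to Notch receptors and changes which ligands they answer, had 125 UMIs in A cells and 308 in B cells. Its levels were 3.10 CPM (2.58 to 3.70) and 5.84 CPM (5.20 to 6.53), a B level 1.88-fold the A level (1.52 to 2.33). Lfng, Nrarp, Hey1, both ligands and Hes1 were thus higher in B cells, and Notch1 and Notch2 in A cells, each with an interval that excludes equal levels.

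The promoters of the member with matches and of the 2 members that differed most are printed here, because RBPJ binds a short DNA core, TGGGAA. The 250 bases before the start of the gene were searched for it on both strands in the RefSeq table for GRCm38.p6, an older build than the one used for the counts. The table matched 7 of the 9 members. It had no entry for the targets Hes1 and Hey1, whose promoters were thus not searched. Of the 7 promoters searched 1, that of Lfng, held the core. Among 32851 promoter windows of the same length, 21.6% held it. The Notch1 window lies at chr2:26503823-26504072 on the minus strand, the Nrarp window at chr2:25180508-25180757 on the plus strand, and the Lfng window at chr5:140607091-140607340 on the plus strand. Sequences run 5′ to 3′ toward the gene, with matches to the core, on either strand, in capitals.
Notch1: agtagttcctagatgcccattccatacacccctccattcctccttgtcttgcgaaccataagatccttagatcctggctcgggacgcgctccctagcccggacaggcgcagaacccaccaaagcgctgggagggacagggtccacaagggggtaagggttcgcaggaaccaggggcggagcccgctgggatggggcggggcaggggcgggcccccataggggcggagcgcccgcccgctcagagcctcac
Nrarp: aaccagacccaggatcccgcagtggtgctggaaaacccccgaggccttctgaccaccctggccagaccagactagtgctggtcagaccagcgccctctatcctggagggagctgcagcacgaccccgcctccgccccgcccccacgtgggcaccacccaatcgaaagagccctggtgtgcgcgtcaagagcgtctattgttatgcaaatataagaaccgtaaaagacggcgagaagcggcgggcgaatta
Lfng: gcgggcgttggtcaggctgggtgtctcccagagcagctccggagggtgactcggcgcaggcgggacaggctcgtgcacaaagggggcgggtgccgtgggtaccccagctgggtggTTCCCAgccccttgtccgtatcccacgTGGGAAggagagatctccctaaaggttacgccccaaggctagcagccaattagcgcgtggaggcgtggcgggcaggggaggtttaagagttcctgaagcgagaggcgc
Lfng held 2 matches, and 2.77% of the windows held at least 2. A match is a description of the letters and says nothing of whether the site is bound, and the windows without one say only that these letters are not in them.

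**Figure D1:**
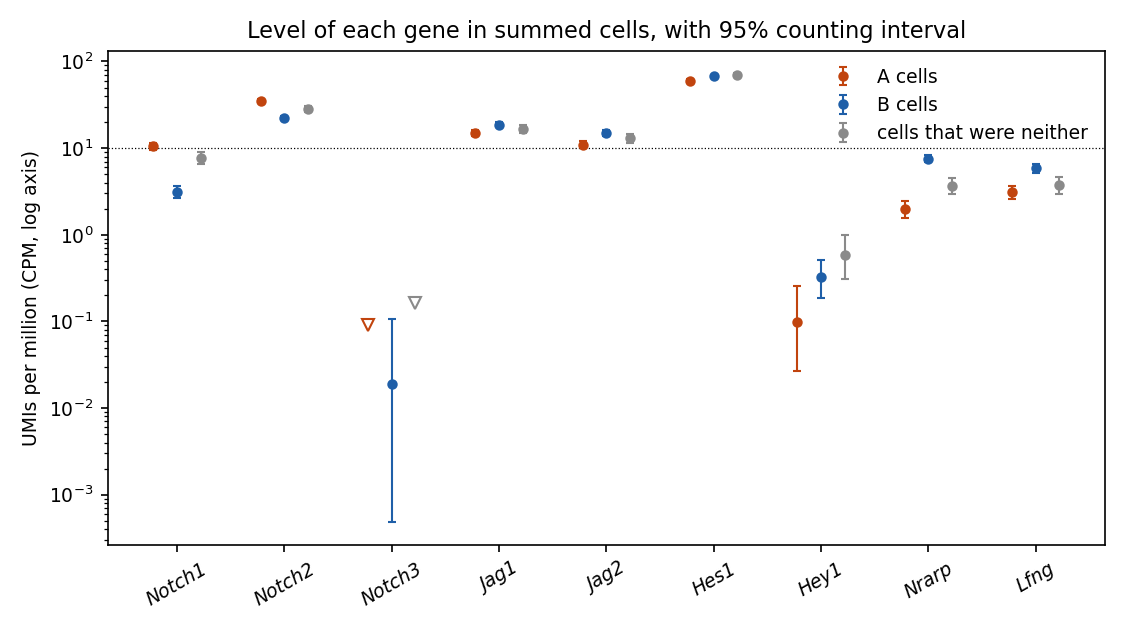
Level of each member in A cells, in B cells and in cells that were neither, in CPM on a log axis, with 95% Poisson intervals. Open triangles mark the upper limit where 0 UMIs were read, and the dotted line marks 10 CPM. Notch1 and Notch2 sit higher in A cells; Nrarp and Lfng sit higher in B cells.

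The members' differences were read against those of all genes. Among the 8240 genes with a mean of at least 10 CPM over A and B cells, 15% were at least 2-fold apart, 8.75% higher in A cells and 6.2% higher in B cells. Notch2, Jag1, Jag2 and Hes1 passed this minimum and 0 of the 4 were 2-fold apart. At 1.5-fold, 1 of the 4 was apart, Notch2, against 33.6% of genes. At a minimum of 5 CPM Notch1 entered and was the 1 of 5 members 2-fold apart, against 17.2%, though it passed only through A cells, where it was high. At a minimum of 1 CPM, chosen after the values were seen, 7 members entered and 2 were 2-fold apart, against 22.9% of 12178 genes. Notch1 was higher in A cells, as were 13.7% of genes, and Nrarp in B cells, as were 9.17%. Nrarp and Notch1 were above 1 CPM in both kinds of cells, and a count of 2 in 7 members is near the share over all genes. The median log2 A over B difference of the 8240 genes was 0.155, and scaling that sets it to 0 gave a Notch2 ratio of 1.39 and left every member's direction unchanged.

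RNA from 1 cell can be read in another, and its extent was gauged. When each of the 11 genes that define A and B was read in cells of the other kind assigned without it, it stood at 1.89% to 4.50% of its own level. Notch1 in B cells stood at 29.6% of its A level, and Nrarp in A cells at 25.9% of its B level. A and B cells also differed in 3 lists of genes tied to cell state. The early response list (Fos, Jun and other rapidly induced genes) stood at 225 CPM in A cells and 424 in B cells, the mitotic list at 1431 and 1196, and the replication list at 1336 and 1163. Whether these, or the gaps in depth and mitochondrial share, bear on the members' levels was not tested.

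**Figure D2:**
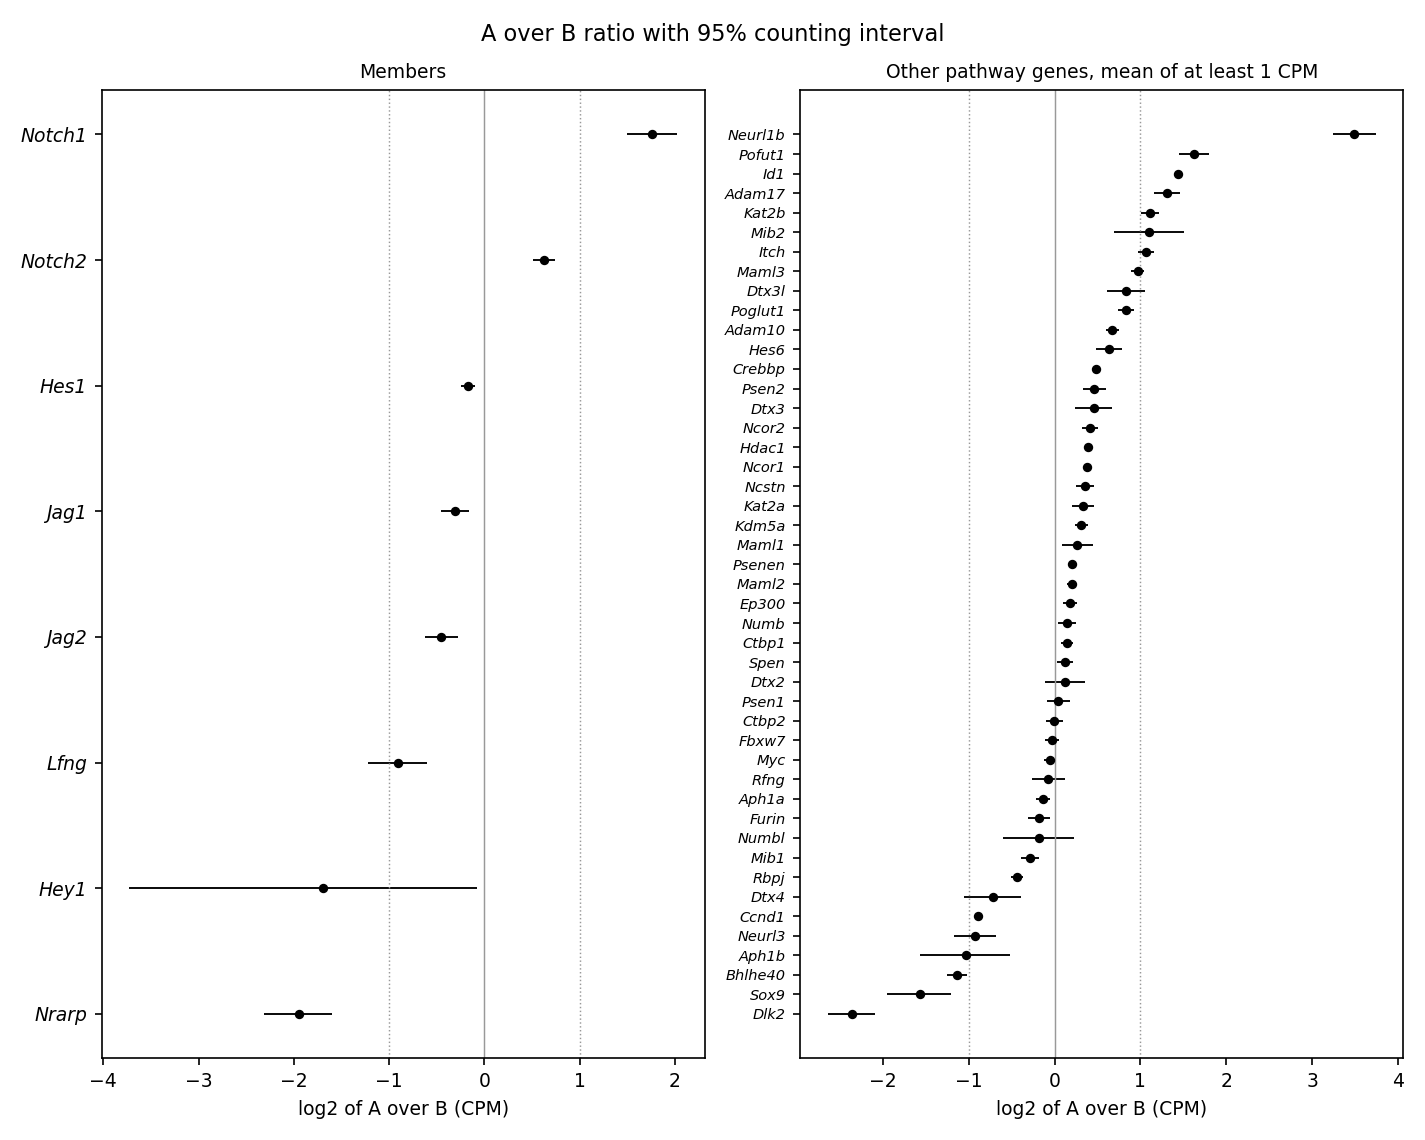
Log2 of the A over B ratio of each member, left, and of other Notch pathway genes with a mean of at least 1 CPM, right, with 95% counting intervals. Dotted lines mark 2-fold. Notch1 lies past them toward A cells and Nrarp toward B cells, while Hes1, Jag1, Jag2 and Notch2 lie between them.

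Read per cell, the members were sparse. After each cell was thinned to 3000 UMIs, which left out 410 A cells and 109 B cells, Notch1 was seen in 3.01% (2.63 to 3.43) of 7406 A cells and 0.872% (0.689 to 1.09) of 8827 B cells, with 95% Clopper-Pearson intervals. The unthinned shares were 5.22% and 1.84%. Notch2 was seen in 10.0% (9.36 to 10.7) and 6.26% (5.77 to 6.79), against 16.0% and 12.3% unthinned. Both receptors were thus in more A cells at equal depth. Jag1 was seen in 4.23% (3.78 to 4.71) and 5.32% (4.87 to 5.81), against 7.27% and 10.3% unthinned. Jag2 was seen in 3.21% (2.82 to 3.64) and 4.41% (3.99 to 4.86), against 5.39% and 8.38% unthinned. The ligands were in more B cells, as was Hes1, at 15.9% (15.03 to 16.7) and 17.7% (16.9 to 18.6), against 24.2% and 30.5% unthinned. Nrarp was seen in 0.567% (0.409 to 0.766) and 2.35% (2.04 to 2.68), against 1.01% and 4.38% unthinned. Lfng was seen in 0.837% (0.642 to 1.07) and 1.77% (1.503 to 2.06), against 1.57% and 3.38% unthinned. The share with any receptor was 12.7% in A cells and 7.10% in B cells, with any ligand 7.35% and 9.43%, and with any target 16.4% and 19.7%. In 67.2% of A cells and 66.3% of B cells none of the 9 was seen.

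Few cells held more than 1 UMI of a member. Hes1 reached at most 4 UMIs in an A cell and 5 in a B cell at this depth. Counts this sparse cannot show how a member's level varies from cell to cell.

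Members were seldom seen together beyond what their own shares give. Of the 36 member pairs, 13 in A cells and 15 in B cells had at least 5 expected cells with both. In A cells 0 of 13 reached 1.5 times the expected number, against 1.77% of pairs of a member with any tested gene. In B cells 2 of 15 did, against 1.62%: Jag1 with Lfng in 14 cells where 8.31 were expected, a ratio of 1.69 (0.921 to 2.83), and Jag2 with Lfng in 11 cells where 6.87 were expected, 1.60 (0.799 to 2.86). Both intervals include 1. The 1.62% pools members that differ in how often they are seen. Taken by gene, the share was 3.01% for Lfng, 0.748% for Jag1 and 0.970% for Jag2. Thinning draws UMIs at random, and 10 draws, added after the data were seen, were compared. The ratio of Jag1 with Lfng lay between 0.461 and 1.69, at 1.5 or more in 2 of them. That of Jag2 with Lfng lay between 0.539 and 1.84, at 1.5 or more in 4 of them. In A cells, Notch1 with Jag2 (0.632 to 1.59) was at 1.5 or more in 3 draws. Notch2 with Lfng (0.497 to 1.59) was so in 2. In B cells, Jag1 with Jag2 and Jag1 with Nrarp were so in 1 each. Without the cells marked as doublets (1.87% of A cells and 2.33% of B cells) and with the draw kept, 0 pairs reached 1.5 in A cells and 1, Jag1 with Lfng, in B cells. At a lower threshold, 5 cells seen for every 4 expected, 1 of 13 pairs in A cells and 4 of 15 in B cells passed, against 8.47% and 8.03%.

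The receptor and ligand pair Notch2 and Jag1 had the one interval above 1, in A cells and in the draw used, with 44 cells holding both where 31.4 were expected, a ratio of 1.40 (1.02 to 1.88). This was the highest of the 10 draws, which went down to 1.11. In B cells the same pair was at 1.12, with draws from 0.752 to 1.16. A receptor and a target, Notch2 and Hes1, were seen together in 116 A cells against 117.8 expected and in 97 B cells against 98.1. The targets Nrarp and Hes1 were seen together in 37 B cells against 36.7 expected. Over the pairs with at least 5 expected cells, Pearson correlations across cells lay between -0.014 and 0.037 in A cells and between -0.009 and 0.023 in B cells, values too small to read at this depth.

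**Figure D3:**
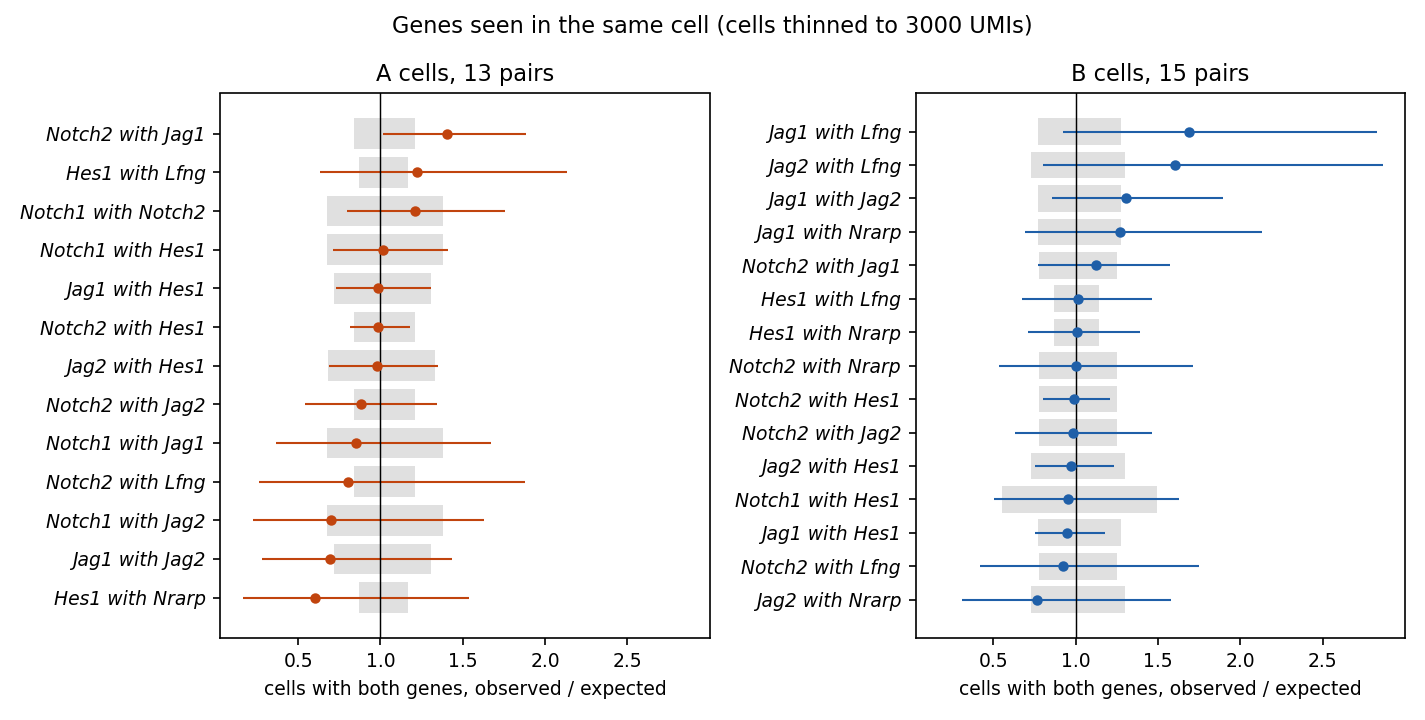
Observed over expected cells with both genes for each member pair with at least 5 expected cells, in A and B cells, with 95% intervals. Grey bands mark the 5th to 95th percentile of the first gene of the pair with all tested genes. Notch2 with Jag1 in A cells is the pair whose interval lies above 1 in the draw shown.

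The genes most like each member across cells had low correlations throughout. The 13 lists ranked cover members seen in at least 50 A or B cells, which left out Notch3 and Hey1 in both and Nrarp in A cells, and 3431 genes with a mean of at least 50 CPM. The highest value in them was 0.0670, for Hes1 with Malat1 in A cells, and Hes1 with Malat1 led in B cells too, at 0.0533. Notch1 in A cells ranked highest with Ddt at 0.0606. These are descriptions over cells that share 1 library, and weak values in sparse counts are no finding.

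Within A cells, Notch1 differed between the epithelial-gene cells (944, with UMIs of S100g, Epcam and Tm4sf20) and the contractile-gene cells (742, with UMIs of Tnc, Acta2 and Tagln). It was at 14.8 CPM (11.5 to 18.7, 68 UMIs) in the former and 5.90 CPM (3.78 to 8.77, 24 UMIs) in the latter, a ratio of 2.51 (1.55 to 4.17). Over 10 draws of the thinning that sorts cells into these states the ratio lay between 1.93 and 2.65, at 2-fold or more in 8. Under a stricter rule for the states, 3 UMIs and 5 times the other list, it was 4.29. Jag1 went the other way, at 9.78 CPM against 18.4 CPM, 1.88-fold higher (1.29 to 2.79) in contractile-gene cells, and 1.60-fold to 2.05-fold higher over the draws. Hes1 was at 65.4 and 62.7 CPM. Of the members, 5 passed the minimum of 10 CPM and 1, Notch1, was 2-fold apart, against 4.49% of 8403 genes. Notch1 passed that minimum only through the cells where it was high, so this count is no support for its difference. At 1.5-fold Notch1 and Jag1 were apart, against 13.4%, and Jag1 too passed only through the cells where it was high. The replication list was at 1092 CPM in epithelial-gene and 1380 in contractile-gene cells. Its part in the difference was not tested.

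Within B cells, the squamous-gene cells (454, with UMIs of Krt14 and Sprr1a) and the Areg-gene cells (3135, with UMIs of Areg, Btc and Cftr) had 0 of 4 tested members 2-fold apart, against 1.31% of 7924 genes. At 1.5-fold Jag2 was the 1 member apart, against 8.03%. Under the stricter rule for the states Jag2 was the 1 member 2-fold apart. The share over all genes was not computed for that rule, so nothing is read from that count. Hes1 was at 79.5 CPM (69.6 to 90.4) against 64.3 (60.6 to 68.1), a ratio of 1.24 (1.07 to 1.43), and its interval lay above 1 in 9 of the 10 draws. Jag2 was 1.55-fold higher (1.06 to 2.34) in Areg-gene cells, at 15.9 against 10.3 CPM, and its interval excluded equal levels in 6 of the 10 draws. The early response list was at 515 CPM in squamous-gene and 409 in Areg-gene cells, and the mitotic list at 834 and 1230. Their part was not tested.

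Notch1 was also lower in the A cells richest in replication genes, and Hes1 higher in those richest in early response genes. In the 921 replication-high A cells the Notch1 level was 5.40 CPM (3.46 to 8.04, 24 UMIs) against 11.1 CPM (9.98 to 12.2, 384 UMIs) in the rest, 2.05-fold lower (1.35 to 3.23). As a ratio to the rest this was 0.489. It lay between 0.455 and 0.690 over the 10 draws, 2-fold lower in 3 of them and with an interval below 1 in all 10. With a wider top group, 28.9% of A cells with ties, it was 0.675. The mitotic list was at 732 CPM in these cells and 1539 in the rest, and its part was not tested. In B cells, the corresponding values were 1.80 and 3.30 CPM. Their ratio to the rest was 0.544 (0.256 to 1.03), with an interval that includes 1. Over the draws the B-cell ratio to the rest lay between 0.374 and 0.820, with an interval below 1 in 3 of the 10, and the difference between A and B cells was not tested. In mitotic-high A cells Notch1 was at 14.7 against 9.82 CPM, a ratio of 1.499 (1.14 to 1.94), which lay between 1.27 and 1.72 over the draws. The replication list was at 895 CPM in mitotic-high A cells and 1413 in the rest, and its part was not tested. Hes1 was at 78.2 CPM (71.3 to 85.5) in the 1186 early response-high A cells and 56.0 (53.5 to 58.6) in the rest, 1.40-fold (1.26 to 1.54), and at 75.7 against 65.8 CPM in B cells, 1.15-fold (1.05 to 1.26). Over the draws these ratios lay between 1.30 and 1.44 in A cells and between 1.08 and 1.21 in B cells. The mitotic list was at 1177 CPM in early response-high A cells and 1498 in the rest. In B cells it was at 995 and 1229 CPM, and its part was not tested. At 10 CPM, 0 members were 2-fold apart in any of these 6 comparisons. The background was 0.93% for mitotic-high, 0.422% for replication-high and 0.12% for early response-high A cells, and 0.975%, 0.252% and 0.101% for the B cells in that order. At 1 CPM, Notch1 and Nrarp were 2-fold lower in replication-high A cells, Nrarp on 4 against 75 UMIs. The Nrarp ratio to the rest was 0.417 (0.111 to 1.11), with an interval that includes 1. Nrarp was 2-fold lower in 5 of the 10 draws, and it passed 1 CPM only through the rest of the A cells. The count of 2 stands against 2.4% of genes apart in either direction.

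**Figure D4:**
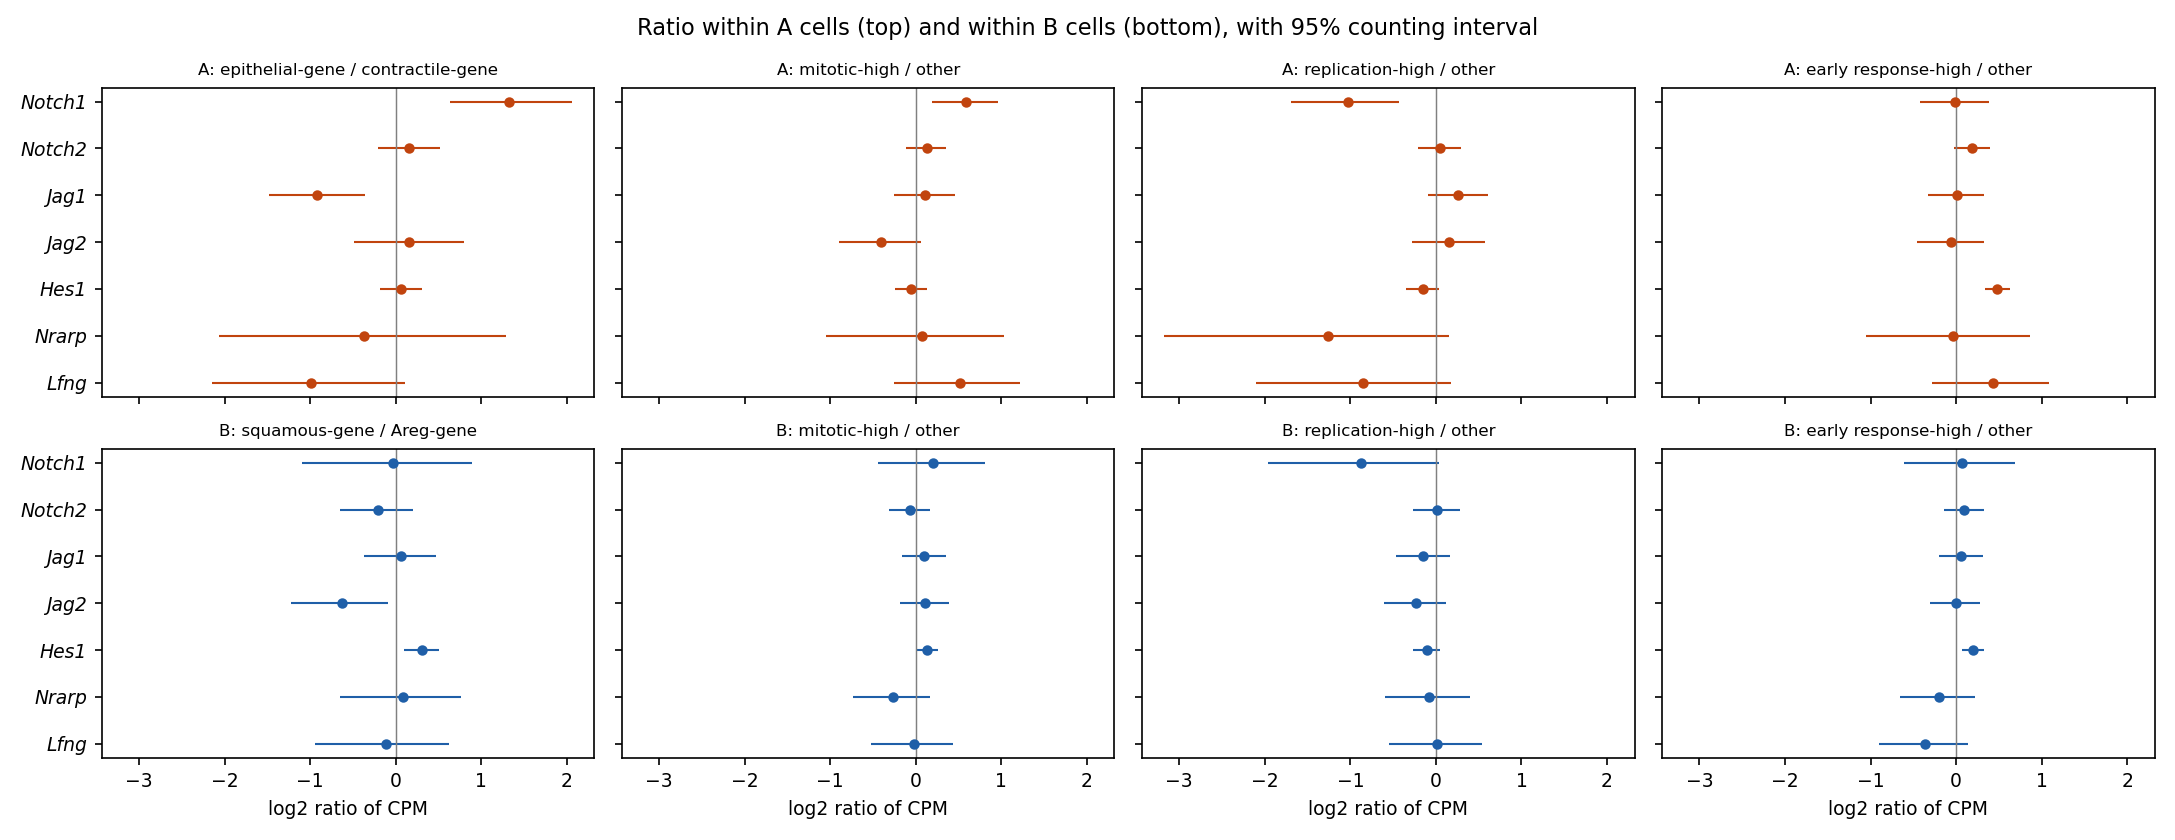
Log2 ratio of 7 members between cell states within A cells (top) and within B cells (bottom), with 95% counting intervals. Notch1 is higher in epithelial-gene than contractile-gene cells and lower in replication-high A cells; Hes1 is higher in early response-high cells.

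Beyond the members, 61 other genes of the pathway were counted by role. At a mean of at least 10 CPM 36 could be compared, 6 of which were at least 2-fold higher in A cells, 1 in B cells and 29 neither, with a median log2 A over B difference of 0.287. The same over all genes was 8.75% and 6.2%, with a median of 0.155. Of the 6, Neurl1b, Pofut1 and Adam17 were under 10 CPM in B cells and passed only through A cells. Scaling that sets the median of all genes to 0 gave 4 and 3: Kat2b and Itch were then under 2-fold, Ccnd1 passed 2-fold in B cells, and Dlk2 passed the minimum, through B cells only. The receptor Notch4, with 12 and 10 UMIs, and all 5 other ligands fell under a mean of 10 CPM. Of these Dlk2, a ligand-like protein, was higher in B cells at 16.2 CPM than in A cells at 3.15 CPM, 5.15-fold (4.27 to 6.25).

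The genes at least 2-fold higher in A cells are given first. Neurl1b, a ubiquitin ligase of ligand uptake, had the largest ratio, 31.4 against 2.80 CPM, or 11.2-fold (9.45 to 13.4). Pofut1, which puts the first sugar on Notch, was 3.08-fold higher (2.73 to 3.49) at 21.9 against 7.11 CPM. Adam17, a sheddase, was 2.48-fold higher (2.23 to 2.76), Kat2b, an acetyltransferase, 2.16-fold (2.01 to 2.33), and Itch, a ubiquitin ligase, 2.10-fold (1.96 to 2.24). Those were 1 of the 3 glycosyltransferases compared, 1 of 8 receptor cleavage genes, 1 of 8 nuclear complex genes and 2 of 5 turnover genes, against 8.75% of all genes, and no role was compared with the rest by a test. Under the scaling that ended the calls of Kat2b and Itch, 0 nuclear complex genes and 1 turnover gene stayed 2-fold higher. Id1, a helix-loop-helix gene placed in the list of other targets, was at 386 and 142 CPM, 2.71-fold (2.64 to 2.79). Whether its level follows Notch activity in these cells was not tested.

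Bhlhe40, a repressor of the same broad family, was 2.20-fold (2.02 to 2.38) higher in B cells, at 42.8 against 19.5 CPM. Rbpj, the DNA-binding core of the pathway, lay outside the rule for named genes and was picked for that role after its values were seen. It was at 68.8 CPM in A and 93.3 CPM in B cells, 1.36-fold higher in B cells (1.29 to 1.42). None of the 7 corepressors was 2-fold apart, and Ncor1, with the most UMIs of them, was at 278 CPM in A and 214 in B cells. The other genes with the most UMIs of their role follow. Poglut1, which adds glucose to Notch, was at 52.0 and 29.3 CPM, and Fbxw7, part of a ubiquitin ligase that targets cleaved Notch, at 52.0 and 53.2. Psenen, a gamma-secretase subunit, was at 135 and 117 CPM, Crebbp, a coactivator, at 207 and 148, and Hes6, the 1 other HES gene compared, at 18.5 and 11.9. Ccnd1, cyclin D1, was at 274 and 506 CPM, 1.85-fold higher in B cells. At 1 CPM 46 genes could be compared, 7 higher in A cells, 4 in B cells and 35 neither, against 13.7% and 9.17% of all genes, so both counts are near the background. At 50 CPM 1 gene, Id1, was 2-fold apart, against 10.9% of all genes. The duct transcription factor Sox9, under 10 CPM, was at 1.91 and 5.68 CPM, 2.97-fold (2.31 to 3.87) higher in B cells. Mib2, a ubiquitin ligase, was at 3.40 and 1.59 CPM, and Aph1b, whose reads may be shared with its near-copy Aph1c, at 1.09 and 2.24. The 7 genes Dlk1, Mfng, Dtx1, Hes2, Hes3, Hes5 and Heyl had 0 UMIs in A and B cells together, and Dll3 and Dll4 had 1 and 3.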

How the data were processed

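Single-cell RNA was captured with 3′ version 4 chemistry. The deposited matrix holds whole-number UMI counts per gene and barcode, made by the authors with Cell Ranger 8.0.1 on GRCm39, per the submitters' processing notes; no normalization was applied by the authors as far as the values show. The members and lists were chosen with earlier results of these data known. Named were all 9 members, and of 61 other pathway genes those at least 2-fold apart, those with most UMIs in their role or those with at most 3. Rbpj was added after its values were seen.

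The filter on cells asked for 2000 UMIs or more and 1000 genes or more, with mitochondrial UMIs no higher than 15%. A cells had at least 2 UMIs of the 5 A genes and at least 3 times those of the 6 B genes, and B cells the reverse. CPM was computed from UMIs summed over A or B cells, with exact Poisson intervals, ratios with Clopper-Pearson intervals, both at 95%. No replicate exists, so no test was run and p-values were not computed. Genes with a mean of at least 10 CPM were compared. Shares and pairs used cells thinned to 3000 UMIs. Alternatives that left out cells kept the draw of the main values, and 10 draws were compared, a check added after the data were seen. States were the top 10% by summed list UMIs, with ties, which made them 11.1% to 16.0% of cells, or cells with at least 2 UMIs of a state list and 3 times the other. Doublets were marked with Scrublet in scanpy 1.11.5 and removed only as an alternative; of 643 cells with UMIs of both lists, left out of both A and B, 55.5% were marked. The scripts were tested on simulated data. Python 3.11.15, numpy 2.4.6, scipy 1.17.1 and pandas 2.3.3 were used.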

Additional observations from a re-analysis of the deposited data

Results flagged for a closer look

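Cells that were neither A nor B lay outside the comparison, yet held UMIs of 8 members, each above a set floor of 3 UMIs. Of the 4609 such cells, 3966 had under 2 UMIs of both lists and 643 had UMIs of both. Hes1 had 1570 UMIs, Notch2 644, Jag1 373, Jag2 292 and Notch1 174. Lfng had 84, Nrarp 83 and Hey1 13, while Notch3 had 0. Their levels were 69.7 CPM for Hes1, 28.6 for Notch2, 16.6 for Jag1, 13.0 for Jag2, 7.73 for Notch1, 3.73 for Lfng, 3.69 for Nrarp and 0.577 for Hey1. The Notch1, Notch2, Jag1, Jag2, Nrarp and Lfng levels lay between those of A and B cells, and Hes1 and Hey1 lay above both, with intervals that overlap those of B cells.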

How the results depend on the processing

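Over 7 alternatives in filtering, doublets, rule and scaling, 0 of 56 member ratios reversed and 53 stayed within their interval. The 3 that moved were Notch2, Jag1 and Hes1 under median-of-ratios scaling, at 1.39, 0.726 and 0.798 as A over B. The A over B range of Notch1 was 3.03 to 3.67, and the B over A range of Nrarp 3.80 to 4.29. Of all genes called, 58.5% were higher in A cells, and 44.8% under median-of-ratios scaling. The members 2-fold apart, 0, became 1 at 1.5-fold (Notch2), 1 at 5 CPM (Notch1) and 2 at 1 CPM (Notch1, Nrarp). The other pathway genes, 7 of 36 against 15% of all genes, became 12 of 36 at 1.5-fold, against 33.6%. They became 1 of 16 at 50 CPM (Id1), against 10.9%, and 11 of 46 at 1 CPM, against 22.9%.

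Which member pairs reached 1.5 times expected changed with the setting. In A cells 0 became 1 at 2000 UMIs (Notch1 with Notch2), 2 at 5000 (Notch1 with Jag2, Notch2 with Nrarp) and 1 at 5 cells seen for 4 expected (Notch2 with Jag1). In B cells the 2 pairs, Jag1 and Jag2 with Lfng, became 1 at 2000 (Notch2 with Jag1), 1 at 5000 (Nrarp with Lfng), 1 with doublets removed (Jag1 with Lfng), 0 under the stricter rule and 4 at that lower ratio. Another draw of the thinning gave 0 in A cells and 2 in B cells (Notch1 with Notch2, Jag2 with Lfng). Over the 10 draws the count of 0 in A cells did not hold throughout. Notch1 with Jag2 was at 1.5 or more in 3 of them and Notch2 with Lfng in 2. Printed intervals do not cover the draw. Between epithelial-gene and contractile-gene cells 1 member became 2 at 1.5-fold (Notch1, Jag1). Between squamous-gene and Areg-gene cells 0 became 1 with a 3 UMI rule and 1 at 1.5-fold (Jag2). The share over all genes was not computed under the 3 UMI rule. For replication-high A cells 0 became 2 at 1 CPM (Notch1, Nrarp). The cause was not tested. Of 33 alternative shares, 28 moved, and of 74 counts, 18. Only 1 library was used, and the depth limits the members at few UMIs, Hey1 and Notch3 above all. No paired analysis was possible because there is 1 library with no replicate numbers.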
